A study of Mus musculus with 26 samples.

Results

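The P2X receptor and TRP channel genes described here are 8 of the 46517 gene symbols measured: P2rx1, P2rx4, P2rx7, Trpv2, Trpv6, Trpm4, Trpm7 and Trpc4ap. The set was selected on the measured P2rx1 and P2rx7 counts of these same libraries, which went in opposite directions between T cell receptor (TCR) transgenic lines, and the line differences of those genes are therefore given as a description with no test. RNA was sequenced from sorted thymocytes of 3 mouse lines, each carrying a single rearranged TCR restricted by MHC class I, with TG6 the line of lowest, F5 of intermediate and OT-1 of highest self-reactivity. TG6 mice were TG6tg H2b/d on a C57/BL6 x B6.C-H2d/bByJ background with no Rag deletion on the label. F5 mice were F5tg Rag1KO and OT-1 mice were OT-1tg Rag2KO, both on C57/BL6. Line, Rag genotype and MHC background cannot be told apart in comparisons with TG6, nor can line and Rag genotype in OT-1 against F5. From each line 3 stages were sorted: early positive selection, double positive for CD4 and CD8 with CXCR4 and without CCR7; late positive selection, still double positive but without CXCR4 and with CCR7; and mature CD8 single positive (CD8SP) cells, which had lost CD4 and CXCR4 and carried CCR7. There were 26 libraries in 9 groups, with 3 biological replicates in each group except TG6 late, which had 2. The table heads the late TG6 columns with a name that lacks 1 digit of the sample titles, and all late TG6 values rest on matching them as the only late TG6 samples. The methods give an age of 3 to 10 weeks for mice outside the neonatal experiments, without naming the sequenced ones. It was not given in the sources used here whether the stages of one replicate came from one animal. P-values here measure the spread between such replicates.

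P2X receptors are trimeric cation channels that open when ATP binds them from outside the cell, and they let calcium and sodium in. T cells release ATP when their TCR is engaged, and P2X1, P2X4 and P2X7 have been linked to the calcium entry that follows. P2X7 needs far more ATP than the others, can open a wide pore and cause cell death, and on mouse T cells can also be switched on by ADP-ribosylation from the ectoenzyme ARTC2. TRP channels are a separate family of cation channels. TRPV2 passes calcium and other cations, TRPV6 is selective for calcium, TRPM4 is opened by intracellular calcium but passes only monovalent ions, TRPM7 is a magnesium and calcium channel fused to a kinase, and TRPC4AP is not a channel but a TRPC4-associated protein that also serves as a substrate receptor of a ubiquitin ligase. Calcium entry downstream of the TCR is part of the signal through which thymocytes are positively selected.

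P2rx1 and P2rx7 carry the contrast between lines, so the sequences upstream of their start sites are shown first. P2rx1 lies on the plus strand of chromosome 11 (chr11:72999103-73015200, GRCm38). P2rx7 (chr5:122643911-122691432) and P2rx4 (chr5:122707544-122729738) lie head to tail on the plus strand of chromosome 5, with 16111 bases between them. RefSeq promoter entries (GRCm38.p6) were found for 7 of the 8 genes; Trpm4 had none. The 250 bases before each start were used, shortened where GENCODE places an exon, which left 208 bases for P2rx1 and 234 for the first of the P2rx7 starts. The other P2rx7 start lies inside the gene. Capitals mark motif matches on either strand, searched as exact letters: E box (CANNTG), RUNX (TGTGGT), AP-1 (TGANTCA), EGR (GCGTGGGCG), NR4A (AAAGGTCA) and ETS (CCGGAAG).
P2rx1, chr11:72998895-72999102, plus strand: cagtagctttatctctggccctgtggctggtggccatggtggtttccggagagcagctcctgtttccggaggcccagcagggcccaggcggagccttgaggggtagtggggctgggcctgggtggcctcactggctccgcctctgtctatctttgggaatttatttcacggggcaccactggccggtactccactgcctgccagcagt
P2rx7, first start, chr5:122643677-122643910, plus strand: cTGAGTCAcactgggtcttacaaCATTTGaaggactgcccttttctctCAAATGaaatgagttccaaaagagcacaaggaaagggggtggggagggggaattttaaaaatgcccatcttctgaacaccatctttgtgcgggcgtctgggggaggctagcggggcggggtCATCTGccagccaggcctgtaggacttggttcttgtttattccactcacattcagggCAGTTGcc
P2rx7, inner start, chr5:122650133-122650382, plus strand: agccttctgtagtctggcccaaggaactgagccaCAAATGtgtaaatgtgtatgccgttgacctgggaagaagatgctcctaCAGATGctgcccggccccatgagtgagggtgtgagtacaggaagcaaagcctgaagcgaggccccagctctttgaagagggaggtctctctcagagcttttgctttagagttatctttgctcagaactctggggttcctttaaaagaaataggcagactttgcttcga
The P2rx1 window held no match to any of the 6 motifs. The first P2rx7 window held 4 E boxes and 1 AP-1 match, and the inner one 2 E boxes; no match overlapped another. Of 32851 mouse promoters, 66.2% held an E box in 250 bases, 6.75% an AP-1 match, 14% a RUNX match, 6.91% an ETS match, 1.34% an NR4A match and 0.536% an EGR match. A match describes letters only, and nothing about binding was measured.

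The values are the deposited normalized counts, which sum to between 16134786 and 18944173 per library. Replicates correlated with r between 0.95 and 0.978 on the log2 scale, and all 8 genes passed the filter of at least 10 in at least 2 libraries. Thymocyte genes were high in every library, and Cd4 was at 7980 to 22730 in early and 62.8 to 461 in mature libraries. Ccr7 was at 112 to 863 in early and 2698 to 12720 in late and mature libraries. Cxcr4 RNA did not separate the sorted stages in every line: early and mature libraries overlapped in F5 (2638 to 4185 against 1462 to 4031) and in OT-1 (1425 to 2898 against 1219 to 3316). Among markers of cells that could contaminate a thymus sort, 7 neutrophil genes summed to at most 18.9, 6 B cell genes to 121 to 336, 5 erythroid genes to 20.3 to 821, 4 regulatory T genes (mostly Ikzf2) to 1913 to 6919 and 7 thymic epithelium genes (mostly Ly75) to 295 to 1563. The platelet, macrophage and innate-like T lists are given beside P2rx1 and P2rx7. Among mature TG6 libraries, replicate 3 stood apart with Rag1 at 5265 against 696 and 620, and Mki67 at 23180 against 6220 and 7129. Among late F5 libraries, replicate 2 stood apart with Rag1 at 1658 against 62.3 and 109. Among mature F5 libraries, replicate 1 read Rag1 at 704 against 2698 and 1896, and Ccr7 at 10870 against 3958 and 5767. For the 8 genes the values without these libraries are given where a call or the reading of it changed, and single pathway genes were not fitted without them. Rag1 RNA was read in the Rag1KO F5 cells (10830 to 16270 in early libraries), so the gene-level count does not check that allele. These are bulk values, in which fewer cells expressing a gene and less RNA per cell cannot be told apart.

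Levels differed widely between the genes. Per kilobase of the longest coding transcript, Trpc4ap was highest, with group means from 1152 in mature OT-1 to 2560 in early TG6 cells. By the average over groups Trpv2 (363 to 903) and Trpm7 (434 to 539) came next. P2rx7 was above Trpm7 in early OT-1 (772 against 492) and late OT-1 cells (528 against 485). P2rx7 was at 772 ± 20.5 (SD, n = 3) in early OT-1 and at 24.4 ± 5.8 (n = 2) in late TG6 cells. P2rx1 spanned 5.78 to 453, P2rx4 65.9 to 132, Trpv6 7.17 to 53.6 and Trpm4 16.2 to 35.8. P2rx1 and P2rx7 were the members whose group means spread most.

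**Figure D1:**
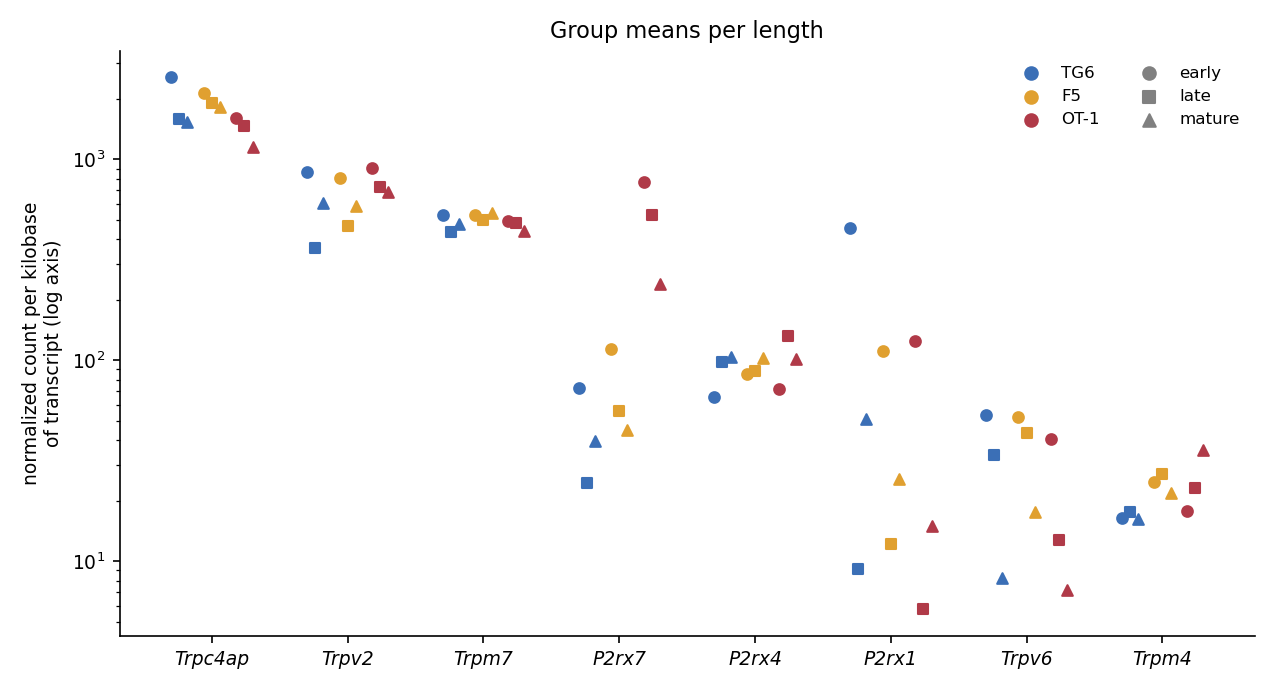
Group means in normalized counts per kilobase of the longest coding transcript (log axis) for the 8 genes, ordered by their average. Colour gives the line and marker shape the stage. Trpc4ap was highest in every group, and P2rx1 ranged from 5.78 in late OT-1 to 453 in early TG6 cells.

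To ask how the genes moved during positive selection, each stage was compared with the next within a line, in limma fits over 16372 genes with p-values adjusted over all of them. From early to late, 5 of the 8 genes passed an adjusted p of 0.05 in TG6 (1 higher, 4 lower), against 25.4% of all genes tested (12.1% higher, 13.3% lower). In F5 3 passed (all lower), against 26.7% (12.7% higher, 14% lower), and in OT-1 3 passed (1 higher, 2 lower), against 26.7% (12.7% higher, 14% lower). From late to mature the counts were 3 in TG6 (2 higher, 1 lower), 1 in F5 (lower) and 3 in OT-1 (1 higher, 2 lower). Of all genes, 22.3% passed in TG6 (14.5% higher, 7.79% lower), 20.5% in F5 (12.2% higher, 8.31% lower) and 24.4% in OT-1 (14% higher, 10.4% lower). Between early and mature cells they were 5 in TG6 (1 higher, 4 lower), 4 in F5 (all lower) and 6 in OT-1 (1 higher, 5 lower). Of all genes, 34.6% passed in TG6 (19.4% higher, 15.2% lower), 19.6% in F5 (10.8% higher, 8.79% lower) and 23.2% in OT-1 (12.8% higher, 10.5% lower). The median log2 change of the 8 genes from early to mature was -0.63 in TG6, -0.35 in F5 and -0.43 in OT-1, where the median over all genes was -0.03, -0.01 and -0.008. The set was chosen on P2rx1 and P2rx7 counts of these libraries. Trpv2, Trpv6, Trpm4 and Trpc4ap were on a channel list that the study drew from OT-1 against TG6 in them. These counts and medians are therefore a description, and nothing is read from them against all genes. The share of calls that were higher depended on scaling from late to mature: in TG6 it was 65.1% as deposited, 49.8% after scaling to equal totals and 49.4% after quantile normalization, and in OT-1 57.5%, 48.2% and 46.2%.

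**Figure D2:**
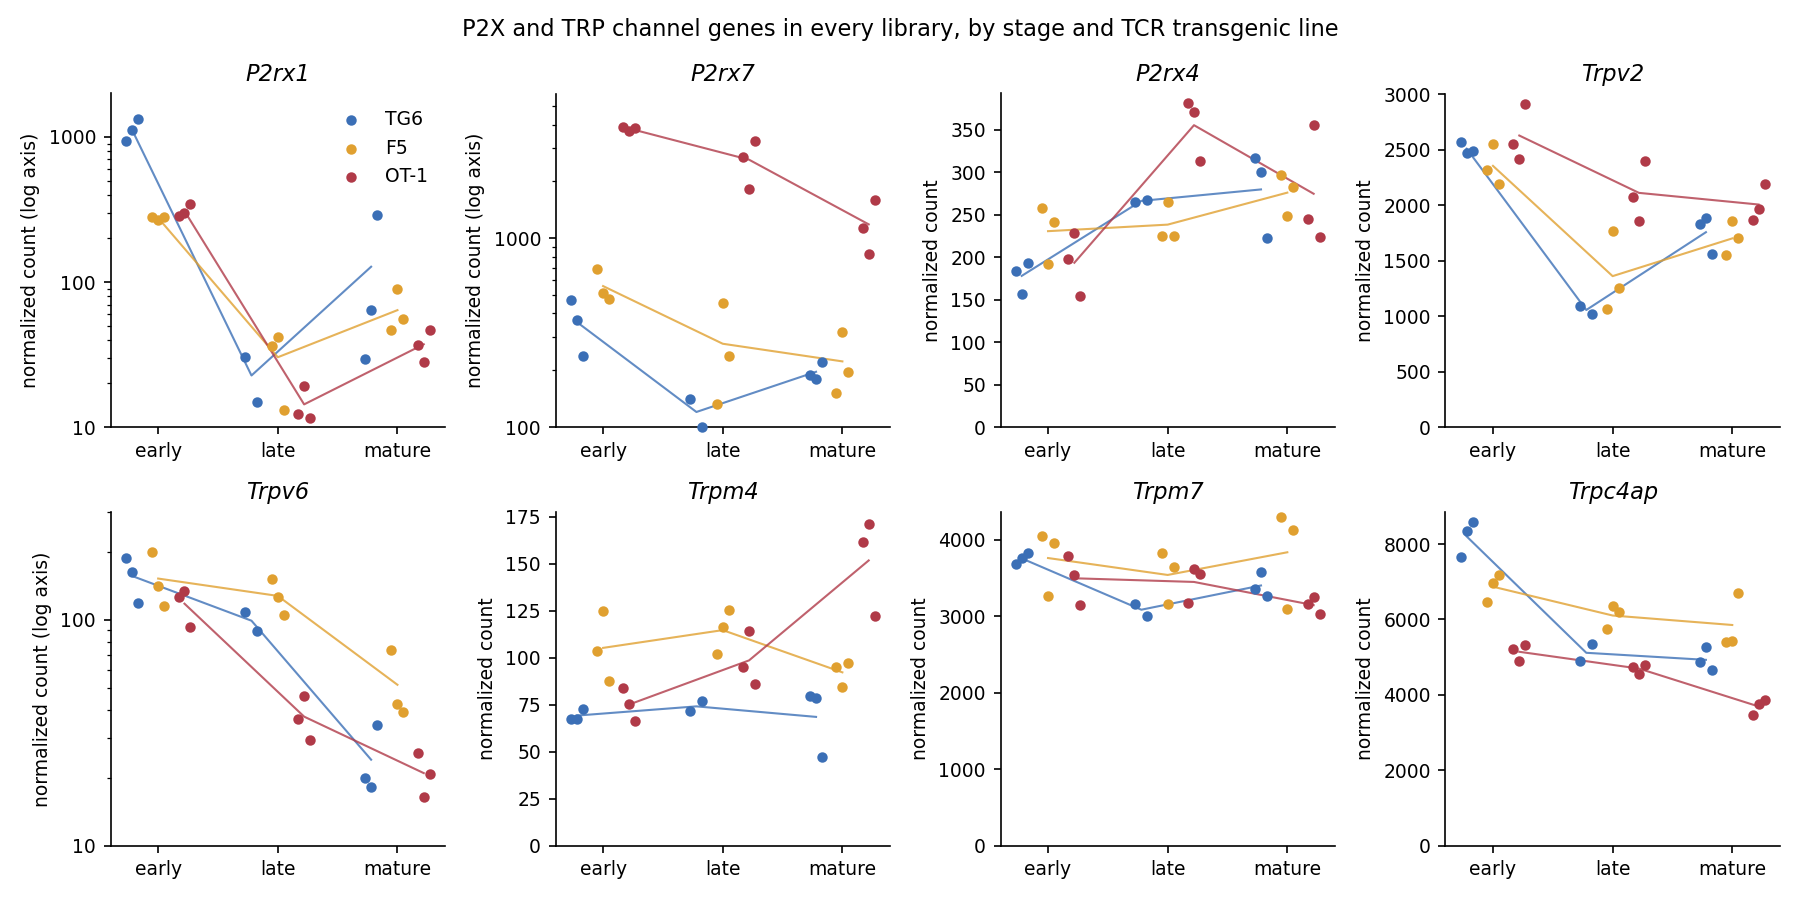
Normalized counts of the 8 genes in each of the 26 libraries, by stage, with colour for the line; lines join group means. P2rx1, P2rx7 and Trpv6 are on log axes and the other 5 on linear axes from 0. P2rx7 in all OT-1 libraries lies above every TG6 and F5 library, and P2rx1 is highest in early cells of each line.

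P2rx1, the P2X subunit that opens at low ATP and desensitizes fast, was an early-stage gene in every line. In early TG6 libraries it read 943, 1111 and 1327, in late ones 31 and 15, and in mature ones 29, 65 and 289. In F5 it read 282, 267 and 281 early, 36, 42 and 13 late, and 47, 89 and 55 mature. In OT-1 it read 283, 298 and 345 early, 12, 19 and 12 late, and 37, 28 and 46 mature. Early and late libraries did not overlap in any line, and early TG6 stood above all other groups. From early to late the log2 change was -5.64 ± 0.60 in TG6 (SE, adjusted p = 3.17e-07). It was -3.30 ± 0.54 in F5 (adjusted p = 7.52e-05) and -4.36 ± 0.54 in OT-1 (adjusted p = 5.13e-06). Late means were 2.01%, 11% and 4.65% of the early ones. The gene was chosen on these same libraries, early TG6 among them, so its stage tests are not free of that choice.

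From late to mature P2rx1 rose by the test in TG6, with a log2 change of 1.90 ± 0.60 (adjusted p = 0.0255), but the mature and late TG6 libraries overlapped. Without mature TG6 replicate 3, the library at 289 that also stood apart in Rag1, the change was 1.00 (adjusted p = 0.155), and without late TG6 replicate 2 it was 1.40 (adjusted p = 0.265). A fit of only the groups compared ended the call as well (adjusted p = 0.31), and so did the replicate number as a block (adjusted p = 0.0751). In F5 the change was 1.15 (95% interval 0.04 to 2.27, adjusted p = 0.14) and in OT-1 1.32 (0.21 to 2.43, adjusted p = 0.0765, or 0.0285 with only the groups compared), with mature above late libraries in both. Over the whole interval from early to mature P2rx1 fell in all 3 lines, with log2 changes of -3.75, -2.15 and -3.04 for TG6, F5 and OT-1 (adjusted p = 7.7e-06, 0.00573 and 0.000196). The TG6 change was -4.65 without mature replicate 3.

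Between lines, which is what chose the gene, the early TG6 mean of 1127 ± 193 (SD) was 3.65 times that of OT-1 (309 ± 32.3) and 4.08 times that of F5 (277 ± 8.19), with n = 3 in each. At the late stage the lines overlapped, at means of 22.7, 30.3 and 14.4 for TG6, F5 and OT-1. In mature cells the TG6 mean of 128 ± 141 rested on replicate 3, and its other libraries, at 29 and 65, lay within the range of OT-1 and that of F5 in turn. Platelets also hold P2rx1 RNA. Of 6 platelet genes, Pf4, Ppbp and Gp9 were at most 1.56, 1.01 and 2.06, while Itga2b reached 101, Gp1ba 78.2 and Itgb3, an integrin chain, 6633. Their sum was 170 to 217 in early TG6, 183 to 298 in early F5 and 1397 to 1906 in early OT-1 libraries, and 3144 to 6737 in late libraries, where P2rx1 was lowest. Their part in the P2rx1 differences was not tested.

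P2rx7, the P2X subunit with the highest ATP threshold, was highest in OT-1 at every stage. In OT-1 it read 3897, 3700 and 3839 early, 2711, 1826 and 3287 late, and 1139, 822 and 1596 mature. In F5 it read 685, 514 and 477 early, 133, 457 and 240 late, and 152, 320 and 197 mature. In TG6 it read 474, 369 and 239 early, 141 and 100 late, and 188, 179 and 222 mature. The lowest OT-1 library, at 822, lay above the highest library of either other line, at 685. As a description of what chose the gene, the OT-1 mean was 10.6 times the TG6 mean early, 21.7 times late and 6.03 times in mature cells, and 6.83, 9.43 and 5.32 times the F5 mean. F5 exceeded TG6 by 1.55 times early, where the libraries did not overlap, and overlapped it at the other stages.

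P2rx7 also changed with stage. The gene was chosen on differences between lines, but in these same libraries, so its stage tests are not free of that choice. From early to late it changed by -1.54 ± 0.39 log2 units in TG6 (SE, adjusted p = 0.00542) and by -1.17 ± 0.35 in F5 (adjusted p = 0.0162), while OT-1 gave -0.59 (95% interval -1.32 to 0.14, adjusted p = 0.238). The TG6 call was lost without late TG6 replicate 2 (-1.30, adjusted p = 0.0893). The F5 call was lost without early replicate 1 (-1.02, adjusted p = 0.0695) or late replicate 1 (-0.74, adjusted p = 0.126) and with only the groups compared (adjusted p = 0.118), and without late replicate 2, which stood apart, it was -1.62 (adjusted p = 0.00114). Sums of 10 macrophage and dendritic genes were also lower late than early, lying between 387 and 514 early and 139 and 153 late in TG6, 207 and 300 early and 130 and 150 late in F5, and 244 and 451 early and 145 and 211 late in OT-1. Those of 4 regulatory T genes lay between 3943 and 4966 early and 2525 and 2884 late in TG6, between 5672 and 6136 early and 1913 and 3374 late in F5, and overlapped in OT-1. Their part in the P2rx7 changes was not tested. From late to mature only OT-1 fell by the test, at -1.15 ± 0.35 (adjusted p = 0.0212). Leaving out 1 library at a time raised that p above 0.05 in 4 of 6 cases: late replicates 1 and 3 (0.0637 and 0.0881) and mature replicates 1 and 2 (0.0524 and 0.107). TG6 gave 0.72 (-0.10 to 1.54, adjusted p = 0.209) and F5 -0.20 (-0.93 to 0.53). P2rx7 and Trpm4 were the 2 genes of the 8 whose late and mature libraries moved in opposite directions in 2 lines without overlap, as 1.8% of all genes tested did. P2rx7 chose the set and Trpm4 was listed for a line difference in these libraries, so nothing is read from that count.

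Over the whole course P2rx7 fell by 1.74 ± 0.35 in OT-1 (adjusted p = 0.000814) and by 1.37 ± 0.35 in F5 (adjusted p = 0.00727, or 0.0527 without mature F5 replicate 1). TG6 gave -0.82 (-1.56 to -0.09, adjusted p = 0.0768), which passed after quantile normalization (0.034) or without early TG6 replicate 3 (0.0332). The mature OT-1 mean was 31.1% of the early one, yet still above early F5 and TG6. Macrophage and dendritic genes, which could bring P2rx7 RNA, summed over 10 genes to 387 to 514 in early TG6, 207 to 300 in early F5 and 244 to 451 in early OT-1 libraries. Within that list 2 genes were higher in early OT-1: Itgax read 33, 52.2 and 13.8 there and at most 3.87 in early TG6 and 2.9 in early F5, and Csf1r read 42.8, 32.5 and 5.63 there and at most 8.29 and 5.55. Their part in the P2rx7 difference was not tested. Genes of innate-like T cells (6 genes, with most of the sum from the TCR delta gene Trdc) summed to 1829 to 2127 in early TG6, 8840 to 10040 in early F5 and 9115 to 10110 in early OT-1 libraries. In late libraries the lines did not overlap, at 1988 to 3337 in TG6, 6530 to 8289 in F5 and 10910 to 12690 in OT-1. In mature libraries the sums were 1764 to 3725, 6843 to 7368 and 6665 to 8028. Ncr1 was at 0 throughout, Zbtb16 at most 2.95 and Klrb1c at most 15.3, while Tcrg-C1 reached 404 and Sox13 3616, and their part in the P2rx7 difference was not tested.

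The ratio of P2rx7 to P2rx1 within a library joins the genes that chose the set, so its differences between lines are a description. The counts are not per length here, so only the change of the ratio between groups is read. The P2rx7 to P2rx1 ratio in early libraries was 0.18 to 0.503 in TG6, 1.7 to 2.43 in F5 and 11.1 to 13.8 in OT-1. In late libraries it was 4.6 to 6.75, 3.69 to 18.4 and 94.9 to 285, and in mature ones 0.771 to 6.38, 3.23 to 3.58 and 29 to 34.4. The ratio thus rose from early to late with no overlap in all 3 lines. It fell back in mature cells with no overlap in OT-1 and, narrowly, in F5 (3.58 against 3.69 at the nearest). Late and mature TG6 libraries overlapped. The early libraries of the lines did not overlap, whereas late TG6 lay within the range of late F5 and mature F5 within that of mature TG6.

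**Figure D3:**
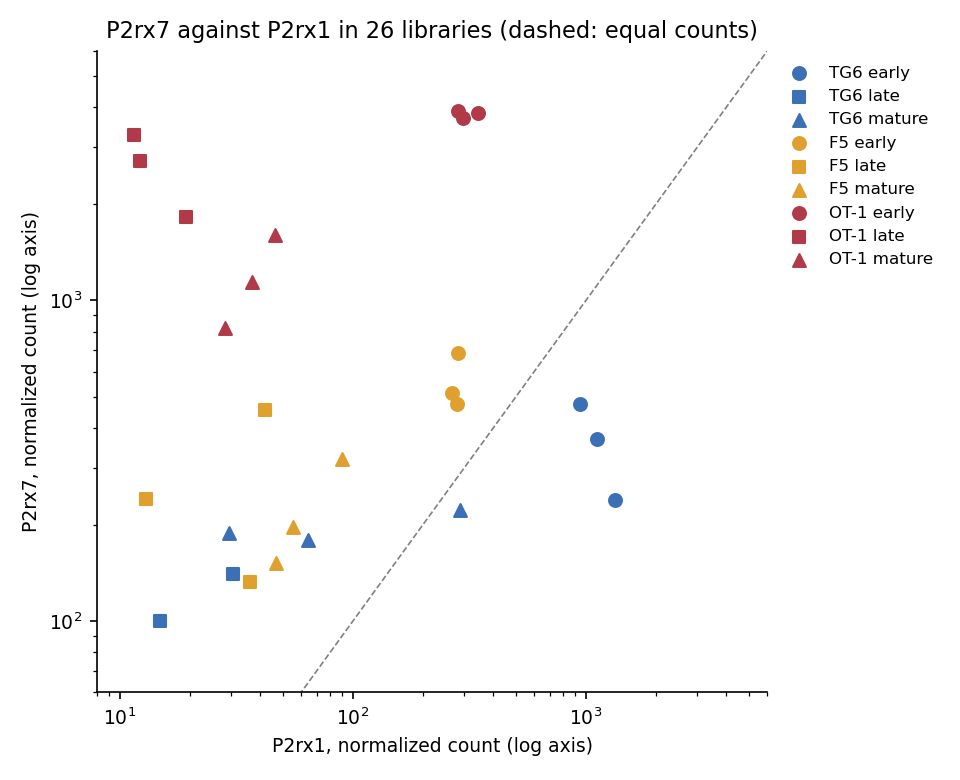
P2rx7 (vertical) against P2rx1 (horizontal) in normalized counts on log axes, 1 point per library, with colour for the line and shape for the stage; the dashed line marks equal counts. Of the TG6 libraries, the 3 early ones and mature replicate 3 lie under the line, and all F5 and OT-1 libraries lie above it.

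P2rx4, the P2X subunit found mostly on endosomes and lysosomes and the chromosomal neighbour of P2rx7, rose from early to late in TG6 and OT-1. In TG6 it read 184, 157 and 194 early, 265 and 267 late, and 316, 300 and 222 mature. In OT-1 it read 198, 229 and 154 early, 381, 371 and 313 late, and 245, 355 and 223 mature. In F5 all libraries lay between 192 and 296. Late libraries were above early ones in TG6 and OT-1, and in F5 the stages overlapped. From early to late it rose by 0.89 ± 0.18 log2 units in OT-1 (adjusted p = 0.000987) and by 0.58 ± 0.20 in TG6 (adjusted p = 0.0395), while F5 gave 0.05 (95% interval -0.33 to 0.43). The TG6 call was lost without either late replicate (adjusted p = 0.151 and 0.161) and without early replicate 1 or 2 (0.0631 and 0.128), and with no filter on low values (0.0577). Mature cells were higher than early ones in TG6, by 0.64 ± 0.18 (adjusted p = 0.00876, or 0.0555 with only the groups compared). The change was 0.49 in OT-1 (0.11 to 0.87, adjusted p = 0.0565), which passed among genes with a mean of at least 50 (0.0443) or without early replicate 2 or mature replicate 3 (0.0318 and 0.0287), and 0.27 in F5 (-0.12 to 0.65).

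P2rx4 and Trpm7 were not on the channel list, which the study drew from channels known in T cells by their read level here and by significance of OT-1 against TG6, so that a small difference there may be part of how they were set apart. For P2rx4 it was 0.11 early, 0.41 late and -0.04 in mature cells, given with no test. The late OT-1 libraries lay above the late F5 ones (313 to 381 against 225 to 265), a difference of 0.57 ± 0.18 (adjusted p = 0.0261). That call was lost without late F5 replicates 1 or 3 (0.0649 and 0.0858) or late OT-1 replicates 1 or 2 (0.0954 and 0.0791), and after quantile normalization (0.43, adjusted p = 0.112). Across the 26 libraries P2rx4 correlated with P2rx1 at r = -0.76 and with its neighbour P2rx7 at r = -0.03, as a description over libraries that share stage and line.

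Trpv2, a calcium-permeable channel that in other cells responds to heat and to stretch, was lower in late than in early cells of TG6 and F5, and rose again in mature TG6 cells. It read 2570, 2473 and 2485 in early TG6, 1096 and 1016 in late TG6, and 1827, 1888 and 1556 in mature TG6 libraries. In F5 it read 2320, 2551 and 2193 early, 1062, 1768 and 1253 late, and 1547, 1855 and 1701 mature. In OT-1 it read 2551, 2421 and 2912 early, 2073, 1859 and 2402 late, and 1868, 1963 and 2188 mature. Late libraries lay below all early ones in each line, and in OT-1 late and mature libraries overlapped. From early to late it fell by 1.25 ± 0.15 log2 units in TG6 (adjusted p = 2.63e-06) and by 0.82 ± 0.14 in F5 (adjusted p = 0.000121), or by 1.03 in F5 without late replicate 2. OT-1 gave -0.32 (-0.61 to -0.03, adjusted p = 0.0964).

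From late to mature Trpv2 rose in TG6 by 0.73 ± 0.15 (adjusted p = 0.00166). In F5 it gave 0.35 ± 0.14 (adjusted p = 0.0807), which passed with the replicate number as a block (adjusted p = 0.0101) and without late replicate 2 (0.56, adjusted p = 0.00284). OT-1 gave -0.07 (-0.36 to 0.22). From early to mature it was lower in all 3 lines, at -0.52 in TG6, -0.47 in F5 and -0.39 in OT-1 (adjusted p = 0.00527, 0.0189 and 0.0471). The F5 call was lost without early replicate 2 or mature replicate 1 (0.0884 and 0.0902), and the OT-1 call without any early replicate (0.0834, 0.0511 and 0.18) or without mature replicates 1 or 2 (0.155 and 0.117), with no filter (0.0753) and with no trend in the variance (0.0685).

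Trpv6, the epithelial calcium channel of gut and placenta, was lower in mature than in early cells of all 3 lines. In TG6 it read 189, 163 and 119 early, 109 and 90 late, and 20, 18 and 34 mature. In F5 it read 200, 142 and 115 early, 151, 126 and 106 late, and 74, 42 and 39 mature. In OT-1 it read 126, 135 and 93 early, 36, 46 and 29 late, and 26, 16 and 21 mature. From early to mature the log2 change was -2.68 ± 0.29 in TG6, -1.56 ± 0.29 in F5 and -2.44 ± 0.29 in OT-1 (adjusted p = 1.98e-07, 0.000472 and 2.07e-06), and mature means were 15.3%, 33.9% and 17.8% of early ones. From early to late OT-1 fell by 1.64 ± 0.29 (adjusted p = 0.000274), where TG6 gave -0.64 (-1.32 to 0.05) and F5 -0.23 (-0.84 to 0.38). From late to mature TG6 fell by 2.05 ± 0.33 (adjusted p = 0.000113) and F5 by 1.33 ± 0.29 (adjusted p = 0.00223), and OT-1 gave -0.80 (-1.41 to -0.19, adjusted p = 0.0518). With only the groups compared, the calls of TG6 and F5 were lost (0.0576 and 0.0587). The OT-1 step passed with equal totals (0.0317), among genes with a mean of at least 50 (0.0413) and without late replicate 3 or mature replicate 1 (0.0439 and 0.0467). Whether the timing differed between lines was not tested.

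Stage changes of Trpm4, the calcium-activated channel, passed the test in OT-1 and not in TG6 or F5. It read 84, 75 and 66 in early, 95, 114 and 86 in late, and 161, 171 and 122 in mature OT-1 libraries, each stage above the last without overlap. TG6 libraries all lay between 47 and 80 and F5 libraries between 84 and 125. Between early and mature cells OT-1 rose by 1.00 ± 0.20 log2 units (adjusted p = 0.000807), a mean of 2.02 times the early one. The step from late to mature, 0.61 ± 0.20 (adjusted p = 0.0311), lost its call without late replicates 1 or 3 (0.0818 and 0.107) or mature replicates 1 or 2 (0.0964 and 0.12), with equal totals (0.0563), after quantile normalization (0.0633) and with only the groups compared (0.0658). TG6 gave -0.05 from early to mature (-0.47 to 0.37) and F5 -0.18 (-0.60 to 0.24). The pseudogene Rpl14-ps1, read at a mean of 2636, lies within Trpm4 on the opposite strand without sharing its exons.

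Trpm7, the channel kinase, varied little. All 26 libraries lay between 3005 and 4295, and 0 of the 9 stage tests passed in limma, with 1 of 9 at an unadjusted p under 0.05. The largest stage difference was -0.28 in TG6 from early to late (-0.54 to -0.03, adjusted p = 0.101), which passed with only the groups compared (0.0127). Between OT-1 and F5 the differences were -0.10 early (-0.33 to 0.13), -0.04 late (-0.26 to 0.19) and -0.27 in mature cells (-0.50 to -0.04, adjusted p = 0.0791). The last passed with equal totals (-0.42, adjusted p = 0.00676), after quantile normalization (-0.34, adjusted p = 0.0194) and without mature F5 replicate 2 (-0.42, adjusted p = 0.00542).

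Trpc4ap, the ubiquitin ligase adaptor, read 7656, 8357 and 8592 in early, 4895 and 5335 in late, and 4858, 5256 and 4669 in mature TG6 libraries. In F5 it read 6459, 6954 and 7190 early, 5745, 6364 and 6202 late, and 5414, 5431 and 6712 mature. In OT-1 it read 5209, 4887 and 5329 early, 4742, 4545 and 4803 late, and 3456, 3770 and 3851 mature. Late libraries lay below early ones without overlap in all 3 lines, and mature below late ones in OT-1. The TG6 change from early to late was -0.68 ± 0.09 log2 units (adjusted p = 9.1e-06), and the OT-1 change from late to mature -0.35 ± 0.08 (adjusted p = 0.0045). From early to mature TG6 fell by 0.74 ± 0.08 (adjusted p = 3.47e-07) and OT-1 by 0.48 ± 0.08 (adjusted p = 0.000191). F5 gave -0.24 ± 0.08 (adjusted p = 0.0514), which passed with the replicate block (0.0153), among genes with a mean of at least 50 (0.0382), after quantile normalization (0.0473), without early replicate 1 (0.0451) and without mature replicate 3 (0.00597). Exons of Myh7b, read at a mean of 5.33, overlap it on the opposite strand, and whether shared reads enter the Trpc4ap value was not tested.

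**Figure D4:**
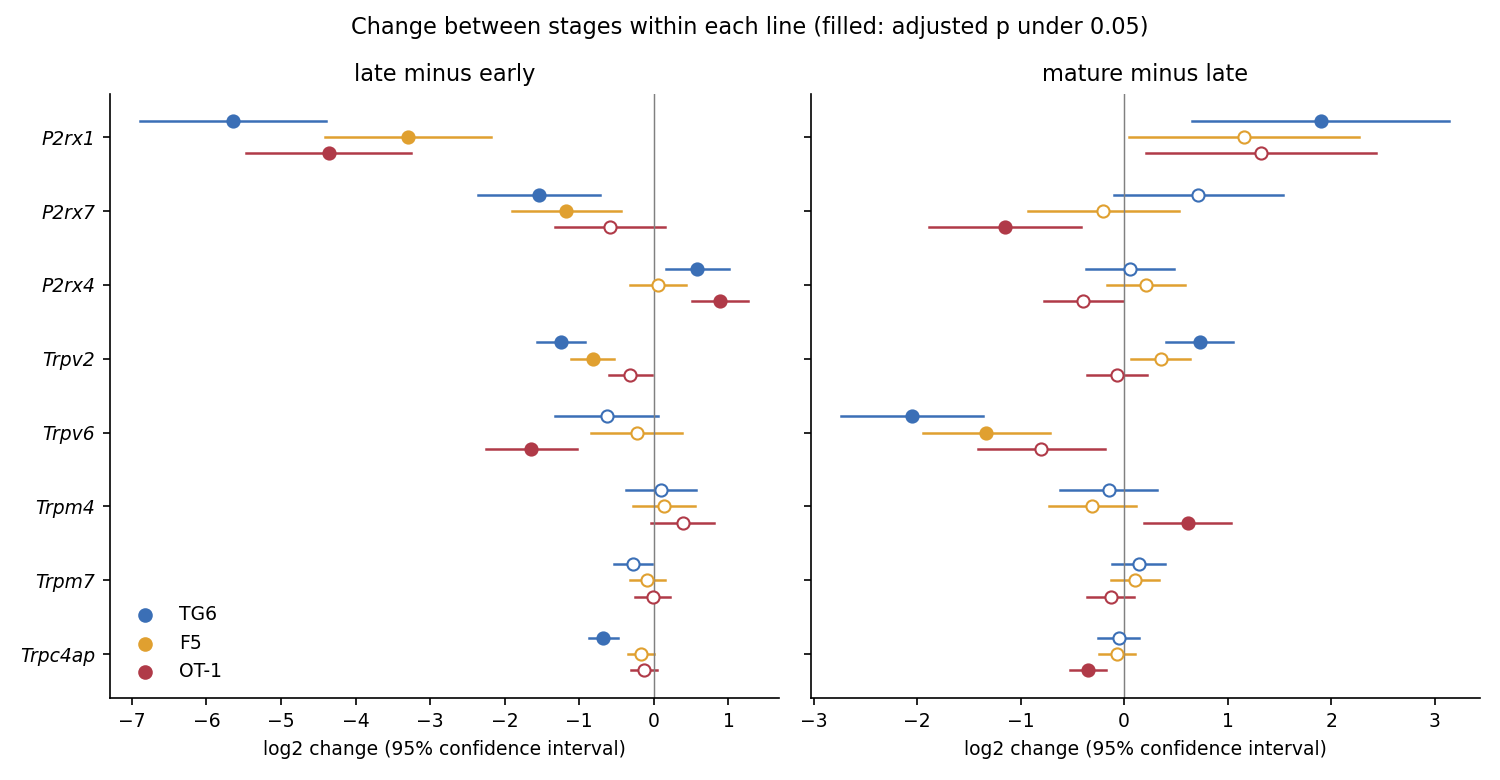
Log2 change from early to late (left) and late to mature (right) for each gene and line, with 95% confidence intervals from the limma fit; filled points passed an adjusted p of 0.05. P2rx1 falls from early to late in all 3 lines, and the Trpv6 step that passed was early to late in OT-1 and late to mature in TG6 and F5; the TG6 and F5 calls were lost with only the groups compared.

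Line differences were tested only for genes and comparisons that the choice had not used directly. Trpv2, Trpv6, Trpm4 and Trpc4ap were on a channel list drawn from OT-1 against TG6, so they were compared by test only with F5 on one side, and P2rx4 and Trpm7 likewise. These comparisons share OT-1 or TG6 libraries with the one that made the list, which can raise the counts, so nothing is read from them against the share of all genes. Between OT-1 and F5, 1 of 6 genes passed in early cells (12.7% of all genes passed), 4 of 6 late (24%) and 3 of 6 in mature cells (23.3%). Trpc4ap was lower in OT-1 than in F5 at every stage, with differences of -0.42, -0.38 and -0.66 log2 units early, late and mature (adjusted p = 0.00163, 0.00215 and 8.71e-06). Trpv6 was lower in OT-1 late (-1.76 ± 0.29, adjusted p = 0.000135) and in mature cells (-1.22 ± 0.29, adjusted p = 0.00495). Late Trpv2 was higher in OT-1 by 0.66 ± 0.14 (adjusted p = 0.00134), and by 0.86 without late F5 replicate 2. With only the groups compared, the calls of late Trpv2 and mature Trpv6 were lost (0.0775 and 0.063).

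Mature Trpm4 was higher in OT-1 than in F5 by 0.70 ± 0.20 (adjusted p = 0.016), with no overlap between 122 to 171 and 84 to 97. That call was lost without mature OT-1 replicates 1 or 2 (0.0593 and 0.0747), with equal totals (0.56, adjusted p = 0.0536) and with only the groups compared (0.0598). Between F5 and TG6, 0 of 6 genes passed early (6.46% of all genes) and late (4.97%), with 2 early and 3 late at an unadjusted p under 0.05, and 1 of 6 passed in mature cells (6.64%). The gene was Trpv6, higher in F5 by 1.07 ± 0.29 (adjusted p = 0.0293). This call was lost without mature TG6 replicate 1 (0.11) or 2 (0.121) or mature F5 replicate 1 (0.18), and with only the groups compared (0.389), and without TG6 replicate 3 the difference was 1.34. Early Trpm4 passed between F5 and TG6 after quantile normalization (0.65, adjusted p = 0.0443), and early Trpc4ap with the replicate number as a block (-0.26, adjusted p = 0.0461). The untested OT-1 to TG6 differences early, late and in mature cells were -0.11, 0.16 and -0.11 for Trpm7, 0.06, 0.99 and 0.19 for Trpv2, -0.40, -1.40 and -0.16 for Trpv6, 0.11, 0.40 and 1.16 for Trpm4, and -0.67, -0.12 and -0.42 for Trpc4ap.

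The share of calls that were higher in OT-1 also depended on scaling: against F5 it was 61.5% early, 56.8% late and 56.9% mature as deposited, and 43.7%, 46.1% and 34.4% after scaling to equal totals. Against TG6 it was 55.3%, 60.1% and 47.9% as deposited and 40.9%, 38.9% and 30.5% with equal totals, and between F5 and TG6 in mature cells it was 32.2% and 42.2%. Equal totals moved the median of all genes to -0.11 and -0.13 for OT-1 against TG6 early and late, to -0.13 for OT-1 against mature F5 and to -0.11 from late to mature in TG6. The directions of the 9 member differences called between lines were the same under that scaling, and 1 call was lost (mature Trpm4 in OT-1 against F5).

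The change from early to mature was also compared between lines. Of the 6 genes tested in OT-1 against F5 1 passed, where 1.64% of all genes did, and of the 6 tested in F5 against TG6 1 passed, where 4.4% did. These comparisons also share OT-1 or TG6 libraries with the one that made the channel list. Nothing is therefore read from the counts against the share of all genes. The Trpm4 change in OT-1, a rise, exceeded that in F5 (-0.18, not called) by 1.17 ± 0.29 log2 units (adjusted p = 0.0368). Trpc4ap fell less in F5 than in TG6, by 0.50 ± 0.12 (adjusted p = 0.0163). The Trpm4 call was lost in 10 of the 12 cases in which a single library was left out (adjusted p at most 0.117), and held without early F5 replicate 3 or mature OT-1 replicate 3. The Trpc4ap call was lost without early F5 replicate 1 (0.0535) or mature F5 replicate 3 (0.052). With only the groups compared both were lost (0.0582 and 0.124), and with no filter the Trpm4 call was (0.0531). Without mature TG6 replicate 3 the Trpv6 difference of F5 against TG6 passed (1.39, adjusted p = 0.0498).

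Most other genes of the 2 channel families did not reach the filter. Of the 4 other P2X genes only P2rx5 passed the filter, and of 18 other TRP genes 5 did. Trpm1, best known as the channel of retinal ON bipolar cells, rose from early to mature in each line. Its mature libraries read 193 to 275 in TG6, 56.4 to 77.2 in F5 and 93.2 to 184 in OT-1, and its early ones at most 10.5, 8.64 and 8.45. The log2 changes were 4.76 ± 0.50, 3.91 ± 0.50 and 4.47 ± 0.50 (adjusted p = 9.8e-08, 4.59e-06 and 7.42e-07). Trpm2, a channel gated by ADP-ribose, was called higher in TG6 (1.61, adjusted p = 0.0378) and F5 (1.83, adjusted p = 0.0313) but was at most 20.2 in any library. P2rx5 was called higher in TG6 (2.05, adjusted p = 0.014) at 6.54 to 24.7.

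Metabotropic purine receptors, which are coupled to G proteins, were counted in a list of 12 P2Y and adenosine receptor genes, of which 6 were tested. Over the whole course limma called 0 of 6 in each line, with 1 in TG6 and 0 in F5 and OT-1 at an unadjusted p under 0.05. Between early and late cells 2 of 6 fell in TG6 and 3 of 6 in F5, where 13.3% and 14% of all genes fell, and from late to mature 2 of 6 rose in each, where 14.5% and 12.2% rose. OT-1 had 0 of 6 at both steps, also at an unadjusted p under 0.05. Of all genes, 26.7% and 24.4% passed there. The difference between lines in these steps was not tested. Adora2a, the adenosine receptor that dampens T cell responses, had log2 changes from early to late of -1.81 in TG6 and -1.22 in F5 (adjusted p = 0.000413 and 0.00525), and gave -0.01 in OT-1. P2ry10, a lipid-sensing receptor, had -1.15 and -1.16 over the same step (adjusted p = 0.00183 and 0.000592) and gave 0.36 in OT-1. Both were named after their values were seen.

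Of 28 genes for release and breakdown of ATP and NAD, 20 were tested. From early to mature 9 were called higher and 5 lower in TG6, 3 and 5 in F5, and 4 and 5 in OT-1, where 34.6%, 19.6% and 23.2% of all genes passed. The median changes of the list were 0.12, -0.008 and 0.26. Art2b, which encodes an ARTC2 enzyme that can gate P2X7, rose in TG6 from 1.98 to 2.98 in early to 92.7 to 187 in mature libraries (5.31 ± 0.55, adjusted p = 8.98e-08). It lay at 36.5 to 42.2 in mature OT-1 and at most 3.78 in mature F5 libraries. Nt5e, the CD73 enzyme that makes adenosine from AMP, rose in TG6 (3.97 ± 0.57, adjusted p = 8e-06) and OT-1 (4.54 ± 0.57, adjusted p = 3.39e-06), and stayed at 1.23 to 2.61 in mature F5 libraries. Cd38, an NAD-consuming ectoenzyme, rose in OT-1 by 2.81 (adjusted p = 0.000637), in TG6 by 3.05 (adjusted p = 0.000145) and in F5 by 1.77 (adjusted p = 0.0273). Entpd6, a nucleoside diphosphatase, rose in all 3 lines by 1.05, 1.06 and 0.87 (adjusted p = 2.05e-07, 5.51e-07 and 6.8e-06).

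**Figure D5:**
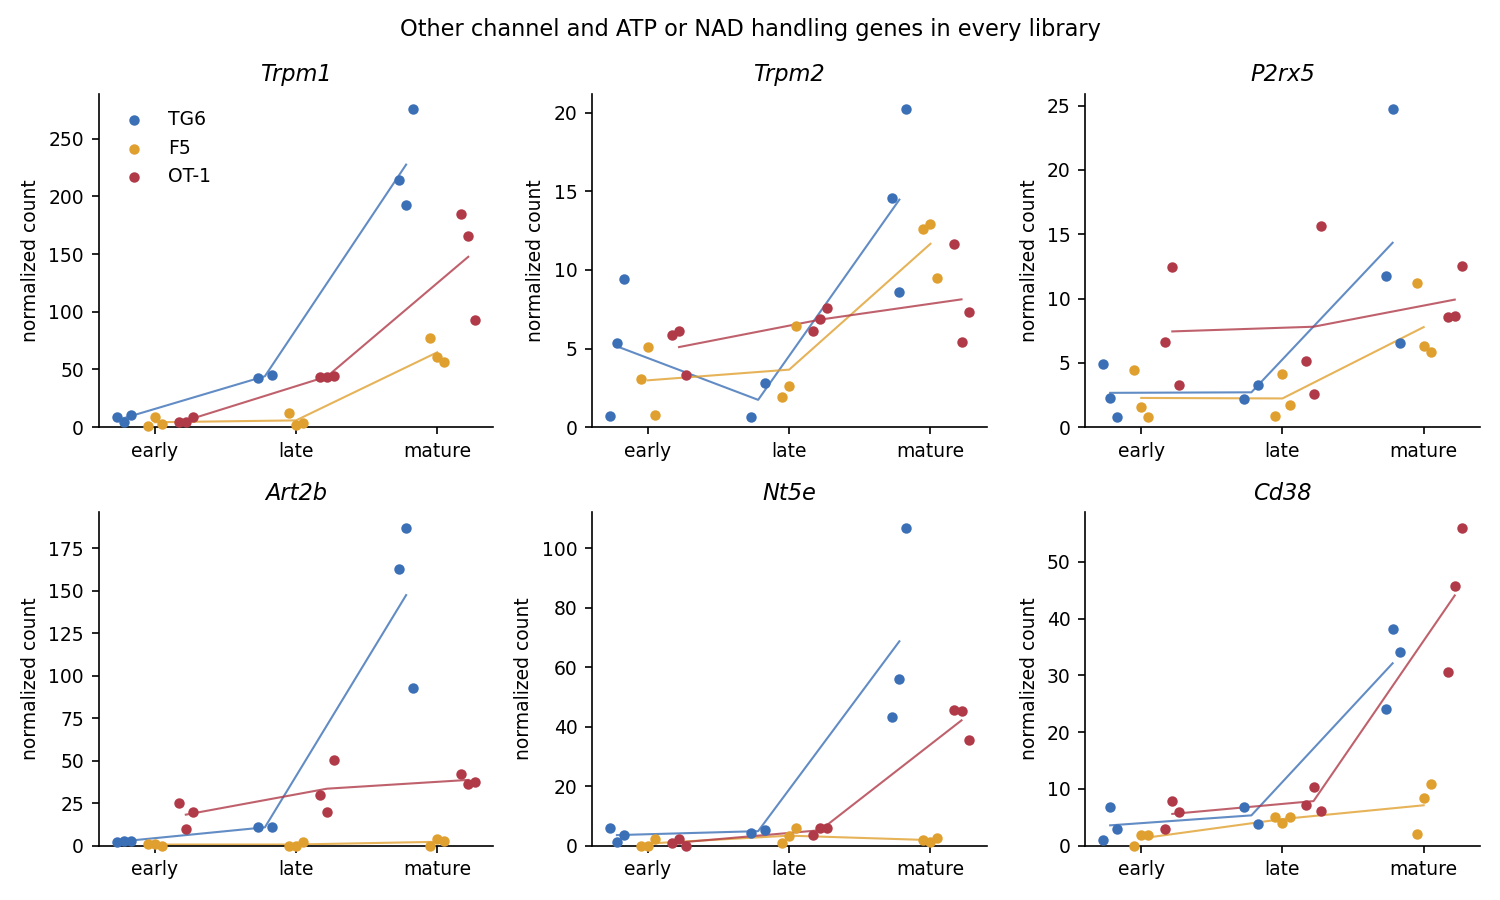
Normalized counts of 6 other channel and purine genes in each of the 26 libraries, by stage, on linear axes from 0, with colour for the line; lines join group means. Trpm1 rises in mature cells of each line, and Art2b is highest in mature TG6 libraries, at 92.7 to 187.

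Genes among those whose log2 values followed each channel gene most closely over the 26 libraries are given with Pearson's r, as a description in which stage and line both enter. For P2rx1 they were A930003A15Rik (r = 0.964), Desi1 (0.955), Dgke (0.953), Sema7a (0.951) and Aqp11 (0.949). For P2rx7 they were Bzrap1 (0.945), Chga (0.92), A430093F15Rik (0.915), Plch1 (0.897) and mt-Rnr1 (0.894). Trpv2 went most closely with 4930486L24Rik (0.924) and with Cd6 (0.903) and Cd5 (0.902), the related surface receptors that tune TCR signals. Trpv6 went with Camk4 (0.945), a calcium-dependent kinase, Cnn3 (0.944) and Ephb6 (0.942), and Trpc4ap with Xpr1 (0.931) and Slc37a2 (0.929). For P2rx4 (Srpk2 and Pyroxd2, 0.839 and 0.817), Trpm4 (Il18r1, Cd44 and Nab1, 0.729 to 0.808) and Trpm7 (Reps1, RP24-359O2.7 and Gm26577, 0.713 to 0.762) no gene came as close. Within the set the highest correlations were Trpv6 with Trpc4ap (0.71) and Trpv2 with P2rx7 (0.68), and P2rx1 with P2rx7 gave 0.06.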

How the data were processed

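RNA from sorted thymocytes of 3 TCR transgenic mouse lines was sequenced in 26 libraries. Per the labels' processing notes, the authors used Trimmomatic 0.32, Bowtie2 2.3.2, RSEM 1.2.31 and DESeq2 with build mm10. The deposited signal values are gene counts estimated by RSEM and divided by library size factors. Read depth per library is therefore unknown (the methods give 1 nominal depth for all). Only 42.4% to 44.2% of values came out as whole reads within 0.01, so raw counts were not recovered and no count model was fitted here. Values were taken as log2(value + 1), so fold changes of low genes are understated. Of 46517 symbols, the 16372 that reached 10 in 2 or more libraries were fitted with limma 3.58.1 in R 4.3.3 (9 group means, moderated with a trend, 17 residual degrees of freedom), and p-values were adjusted by Benjamini-Hochberg over all of them; under 0.05 counted as called. Tests are two-sided.

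The members and gene lists were chosen with earlier results of these data known. P2rx1 and P2rx7 were not tested between lines. No test between OT-1 and TG6 is given for the others, since their place on or off the study's channel list depends in part on that comparison. Genes of the pathway lists were named where they were the 2 called genes of the largest change from early to mature in a line, and correlated genes as the closest 5 or 3, of which some are not reported here. Replicate numbers are shared between stages. In F5 all 9 pairs of same-numbered libraries deviated together, with r over 0.1 (0.106 to 0.34). In OT-1 5 of 9 did (0.0189 to 0.178) and in TG6 2 of 7 (0.023 to 0.274). The replicate block is given beside results for F5 and, where it changed a TG6 or OT-1 call, with the dependence on processing. Gene positions and lengths are from GENCODE vM21 (GRCm38), start sites and sequences from RefSeq. Figures were drawn with matplotlib. Alternatives were no filter, a mean of at least 50, pseudocounts of 0.1 and 5, equal totals, quantile normalization, no trend, only the groups compared, the replicate block and leaving out each library.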

Additional observations from a re-analysis of the deposited data

Results flagged for a closer look

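The change from early to mature was called different between lines for 2 genes by a test of the difference itself. Both genes were on the channel list drawn from OT-1 against TG6. The tests share OT-1 or TG6 libraries with that comparison, so they are not free of the choice. For Trpm4 the log2 change in OT-1 minus that in F5 was 1.17 (limma, adjusted p = 0.0368), with all 3 mature OT-1 libraries above all early ones. The call was lost in 10 of 12 cases of a left-out library, with no filter (0.0531) and with only the groups compared (0.0582). For Trpc4ap the change in F5 minus that in TG6 was 0.50 (limma, adjusted p = 0.0163), with all 3 mature TG6 libraries below all early ones. That call was lost with only the groups compared (0.124) and without early F5 replicate 1 (0.0535) or mature F5 replicate 3 (0.052).

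Opposite movements without overlap between libraries were seen from late to mature for 2 of the 8 genes, where 1.8% of all genes tested showed them. Both genes had been picked or listed for line differences in these libraries, so nothing is read from the count, and these differences between lines were not tested. P2rx7 gave 0.72 in TG6 and -1.15 in OT-1. Trpm4 gave -0.31 in F5 and 0.61 in OT-1.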

How the results depend on the processing

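The depth of each library, beyond the nominal one, is unknown, and genes at a few counts, such as P2rx5 and Trpm2, are limited by it. Leaving out 1 library, the members called ranged in TG6 from 3 to 5 (late minus early), 2 to 3 (mature minus late) and 5 to 6 (mature minus early), in F5 from 2 to 3, 1 to 2 and 2 to 5, and in OT-1 3 to 3, 1 to 3 and 5 to 7. Over the stages they ranged from 7 to 9 for OT-1 minus F5 and 0 to 3 for F5 minus TG6, and from 0 to 3 for the differences between lines in mature minus early. Fitting only the groups compared gave 1 instead of 3 calls in TG6 and 0 instead of 1 in F5 (mature minus late), 5 instead of 8 (OT-1 minus F5), 0 instead of 1 (F5 minus TG6) and 0 instead of 2 (differences between lines). Quantile normalization gave 2 for F5 minus TG6, and no filter gave 1 difference between lines. With the replicate block, mature minus late gave 2 calls in F5 and 5 in OT-1 (3 without it), F5 minus TG6 gave 2, and no other count moved by over 1.5 times. The block moved late minus early Trpm4 in TG6 to -0.006. In TG6 and OT-1 fewer pairs deviated together, but every r was positive, so pairing there was not settled. With the block in limma, the TG6 P2rx1 rise from late to mature lost its call (adjusted p = 0.0751). Calls were gained in TG6 for P2rx7 (mature minus early, 0.0353) and Trpm7 (late minus early, 0.0173). In OT-1 they were gained for Trpv2 (late minus early, 0.0147), P2rx1 and Trpv6 (mature minus late, 0.0364 and 0.0227) and P2rx4 (mature minus early, 0.0229).

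Directions that turned all belonged to changes that were never called. Equal totals gave -0.056 for P2rx4 in TG6 (mature minus late; -0.187 by quantile normalization) and -0.005 for Trpm7 in F5 (mature minus early). Without single libraries, mature minus late ranged in TG6 from -0.043 to 0.211 for P2rx4, -0.277 to 0.093 for Trpm4 and -0.116 to 0.008 for Trpc4ap, in F5 from -0.637 to 0.25 for P2rx7 and in OT-1 from -0.157 to 0.028 for Trpv2. Mature minus early ranged from -0.18 to 0.19 for Trpm4 in TG6 and -0.078 to 0.169 for Trpm7 in F5, and late minus early from -0.072 to 0.141 for P2rx4 in F5 and -0.091 to 0.043 for Trpm7 in OT-1. Of the single-gene results without 1 library, 452 kept their direction and side of the threshold (called or not), 46 lost their call, 11 gained one and 15 turned. Of the 28 correlated genes, 5 were still among the closest 5 or 3 over the 9 group means.

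Counts over all genes moved by over 1.5 times when only the groups compared were fitted: mature minus late from 3655 to 631 in TG6 and 3361 to 1246 in F5; F5 minus TG6 from 1058 to 1663 early, 814 to 259 late and 1087 to 346 mature; OT-1 minus TG6 mature from 1595 to 270, OT-1 minus F5 mature from 3821 to 2519, and the F5 to TG6 difference in mature minus early from 721 to 278. Without mature TG6 replicate 3, OT-1 minus TG6 mature rose from 1595 to 4446, and it fell to 745 and 734 without mature TG6 replicates 1 and 2 and to 971 and 903 without mature OT-1 replicates 1 and 2. Without mature TG6 replicate 3, the OT-1 to TG6 difference in mature minus early rose from 687 to 1153. Without a late TG6 library, late minus early fell from 4158 to 2631 or 2755 and mature minus late from 3655 to 1878 or 2117. Without 1 of 3 early libraries (F5 replicates 2 and 3, OT-1 replicate 2) OT-1 minus F5 fell from 2077 to between 1282 and 1324, and without mature F5 replicate 3 from 3821 to 2281. F5 minus TG6 fell early from 1058 to between 646 and 696 (without TG6 replicates 2 or 3 or F5 replicates 1 or 2) and late from 814 to 429 or 375 (without either TG6 library). OT-1 minus TG6 late fell from 2545 to 1270 or 1100 without either late TG6 library. The OT-1 to F5 difference in mature minus early fell from 269 to between 155 and 178 without F5 early replicates 2 or 3, F5 mature replicates 1 or 3, or replicates 1 or 2 of early or mature OT-1. The causes were not tested.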
